A study of Macaca mulatta with 12 samples.

Results

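The livers of 3 male rhesus macaques (Macaca mulatta) that later became very heavy drinkers (VHD) were compared after and before a first exposure to ethanol. The 6 VHD libraries, of 12 libraries in the series, were chosen by the group and number in their titles. Post-induction biopsies were taken at the end of 90 days of drinking, in which the dose was 0.5, 1 and 1.5 g of ethanol per kg of body weight per day for 30 days each, and baseline biopsies were taken before it. The animals were about 4.6 years old, and numbers 1, 2 and 3 name the same animal at both times. The class names a later behaviour: VHD animals took 4.0 g per kg per day at the end of 12 months of free access, and the 3 light drinkers (LD), which had the same induction, took 1.5 g. No animal went without ethanol, so ethanol and the time between biopsies cannot be told apart in either class. Nothing in the labels says that biopsies were repeated within a time point. Each p-value thus measures the spread between libraries of different animals within a group, pooled over the 4 groups of 3. The main fit did not use the pairing of biopsies by animal, which was fitted as an alternative.

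Hepatocytes oxidise ethanol with alcohol dehydrogenases, aldehyde dehydrogenases and the cytochrome CYP2E1, which burdens the cell with reducing equivalents and oxidants and shifts lipid handling towards storage. Liver also answers to injury and to endotoxin from the gut: Kupffer cells, its resident macrophages, release interleukins, and hepatocytes respond through NF-kappaB and STAT3 with immediate early genes and then acute phase proteins. Hepatocyte miRNA is dominated by miR-122, and miR-21 is a miRNA that many cell types raise in injury.

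Each RNA sample gave an mRNA library and a miRNA library that were sequenced together. Transcript counts per VHD library were 7180516 to 25060718 and mature miRNA counts 157174 to 613359. Hepatocyte markers summed to 137800 to 204500 counts scaled to a common library total (CPM) post-induction and 120400 to 230900 CPM at baseline, and 9 of 10 marker names were found, so the labelled tissue was met. Post-induction 2 and baseline 3 stood apart from the other 4 VHD libraries. Component 1 of the gene values, with 35.9% of the variance, put them at -83.4 and -70.68, and the others at 17.2 to 53.46, and the same pair stood apart in the miRNAs. For every 1000 transcript counts they held 11.9 (post-induction 2) and 9.39 (baseline 3) miRNA counts, against 21.8 to 30.5 in the other VHD libraries. They come from different animals and different times, and their part in the single results was measured by leaving both out. The other 4 libraries were spread as well: component 2 of the gene values (28.9%) put baseline 1 at 78.16 and post-induction 3 at -76.6. In bulk biopsies fewer cells of a type and less RNA per cell cannot be told apart.

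**Figure D1:**
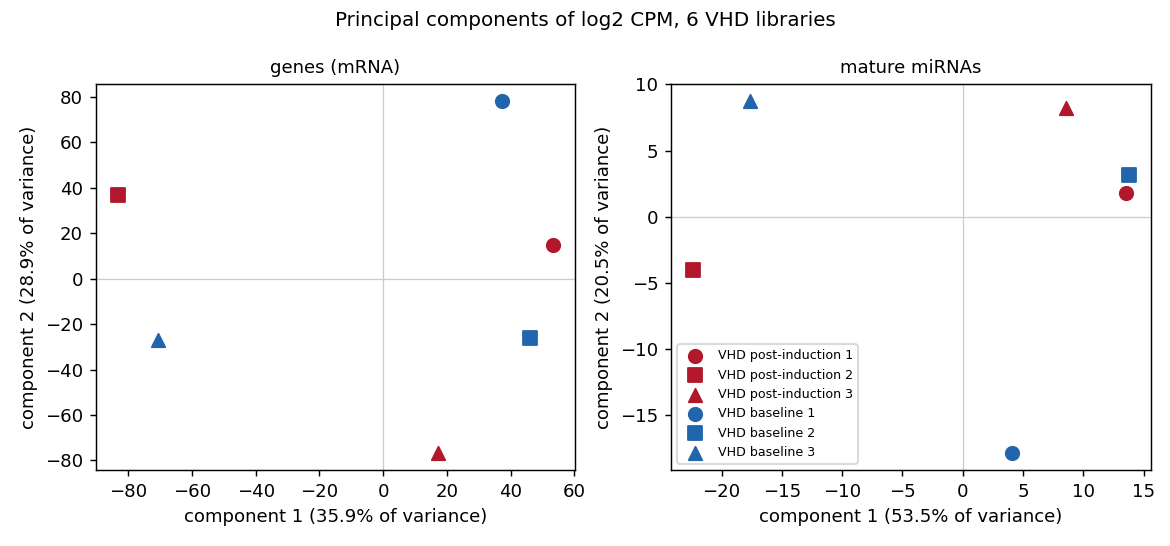
Principal components of log2 CPM in the 6 VHD libraries, for genes on the left and mature miRNAs on the right; each axis names its component and the share of variance, colour marks the time point and shape the animal. On component 1 post-induction 2 and baseline 3 sit at -83.4 and -70.68 in the genes, away from the other 4 libraries, and neither component parts the 3 post-induction from the 3 baseline libraries.

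Of 18373 genes tested with the quasi-likelihood test of edgeR, 0 passed an adjusted p of 0.05 between post-induction and baseline VHD livers. At an unadjusted p under 0.05 there were 632 genes, 3.44% of those tested, 225 (1.22%) higher and 407 (2.22%) lower post-induction. If no gene differed, 5% would be expected at this p, more than were seen. DESeq2, run on the same counts, called 64 genes, 4 (0.0218%) higher and 60 (0.327%) lower. All 64 had the same direction in edgeR, which is no separate support, because both fit the same group means to the same counts. The values below are therefore given per library, with a difference (log2 of post-induction over baseline, with its standard error) and the adjusted p of edgeR, none of which was below 0.182. Lists of genes by function are described by how many members had all 3 post-induction libraries below all 3 baseline libraries, or above them. Of all genes 3.89% were below and 2.8% above. The lists were chosen with earlier results of these data known, so a list share beyond these is a description and not a test. The median difference over all genes was 0.03. Values in a sentence follow the animals in the order 1, 2, 3.

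Genes that cells switch on within minutes of a stimulus, the immediate early genes, stood lower post-induction. The list also counts RGCC, a cell cycle regulator, which had the lowest difference in it. Of 22 tested, 20 had a negative difference and 2 a positive one, with a median of -0.92 and medians of -1.36, -0.78 and -0.97 in the 3 animals. In 10 of the 22 (45.5%, against 3.89% of all genes) the groups did not overlap and post-induction was the lower one, and in 0 was it the higher. KLF6, a zinc finger transcription factor induced in liver injury, had the smallest p of all genes. It had 32.7, 29.5 and 28.3 CPM in post-induction livers, against 239, 178 and 162 CPM at baseline. The post-induction values lay within 5 CPM of each other, and the fit put them 6.40-fold below baseline (-2.68 ± 0.39, adjusted p = 0.182). KLF6 was one of 2 features lower past the threshold when a term for 5 libraries that stand apart in the whole series was added (-2.72, adjusted p = 0.0464). The 5 are VHD post-induction 1 and 3, VHD baseline 2, and LD post-induction 2 and 3. The term thus marks more post-induction than baseline VHD libraries and overlaps in part with the contrast. Over 20 alternatives the adjusted p of KLF6 ran from 1.01e-07 in DESeq2 to 1.0. KLF6 (ENSMMUG00000010696) spans 3679835 to 3688584 of chromosome 9 in Mmul_8.0.1 (minus strand).

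ZFP36, a protein that binds the tails of cytokine mRNAs and speeds their decay, had 19.7, 58.1 and 21.8 CPM post-induction and 280, 158 and 379 CPM at baseline. Both ends of the smaller contrast came from animal 2, whose difference of -1.44 stood beside -3.82 and -4.12 in animals 1 and 3, and the fit gave -3.03 ± 0.57 (adjusted p = 0.287). RGCC, a cell cycle regulator that answers to complement, showed the widest gap between the groups of any gene the naming rule allowed. It had 3.45, 0.164 and 1.17 CPM post-induction, against 31.6, 83.7 and 35.6 CPM at baseline (-5.11 ± 1.05, adjusted p = 0.295). MYC, the growth-promoting transcription factor, had 8.003, 9.199 and 4.286 CPM post-induction and 92.8, 21.7 and 64.1 CPM at baseline (-3.06 ± 0.63, adjusted p = 0.295). JUNB, one of the Jun proteins that make up AP-1, had 2.90, 8.27 and 1.04 CPM post-induction and 80.3, 16.6 and 72.2 CPM at baseline (-3.78 ± 0.86, adjusted p = 0.481). MYC and JUNB shared the pattern of ZFP36, in that animal 2 had the lowest baseline and the highest post-induction value. FOS, the partner of JUNB in AP-1, and ATF3, a stress-induced repressor, did not overlap between the groups either, with differences of -1.42 ± 0.48 and -1.95 ± 0.67 and an adjusted p of 1.0 for each. NR4A2, an orphan nuclear receptor of the same kinetics, had a difference of -1.64 ± 0.45 (adjusted p = 0.698). DESeq2 called 5 of the 22, all lower. Of 34 names in the list 23 were found, and JUN, EGR1, DUSP1 and IER2 were among the 11 that matched no symbol.

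ETS2, a transcription factor downstream of growth factor kinases, had 50.6, 36.1 and 55.9 CPM post-induction and 300, 183 and 167 CPM at baseline (-2.19 ± 0.43, adjusted p = 0.287). ELF3, an epithelial factor of the same family, had 1.38, 1.75 and 2.84 CPM post-induction, against 19.3, 6.89 and 7.81 CPM at baseline (-2.47 ± 0.50, adjusted p = 0.295). Both were lower in 3 of 3 animals, as were 9.87% of all genes. IHH, a hedgehog ligand, had 7.73, 6.84 and 4.15 CPM post-induction and 41.1, 15.9 and 63.3 CPM at baseline (-2.69 ± 0.53, adjusted p = 0.287). The phosphate transporter SLC20A1 (-1.97 ± 0.36), the nuclear envelope protein TMEM201 (-1.68 ± 0.30) and the scramblase family member PLSCR2 (-2.28 ± 0.45), each with an adjusted p of 0.287, were also among the 10 named genes with the smallest p on the lower side. In all 3 the post-induction libraries stayed below the baseline libraries.

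**Figure D2:**
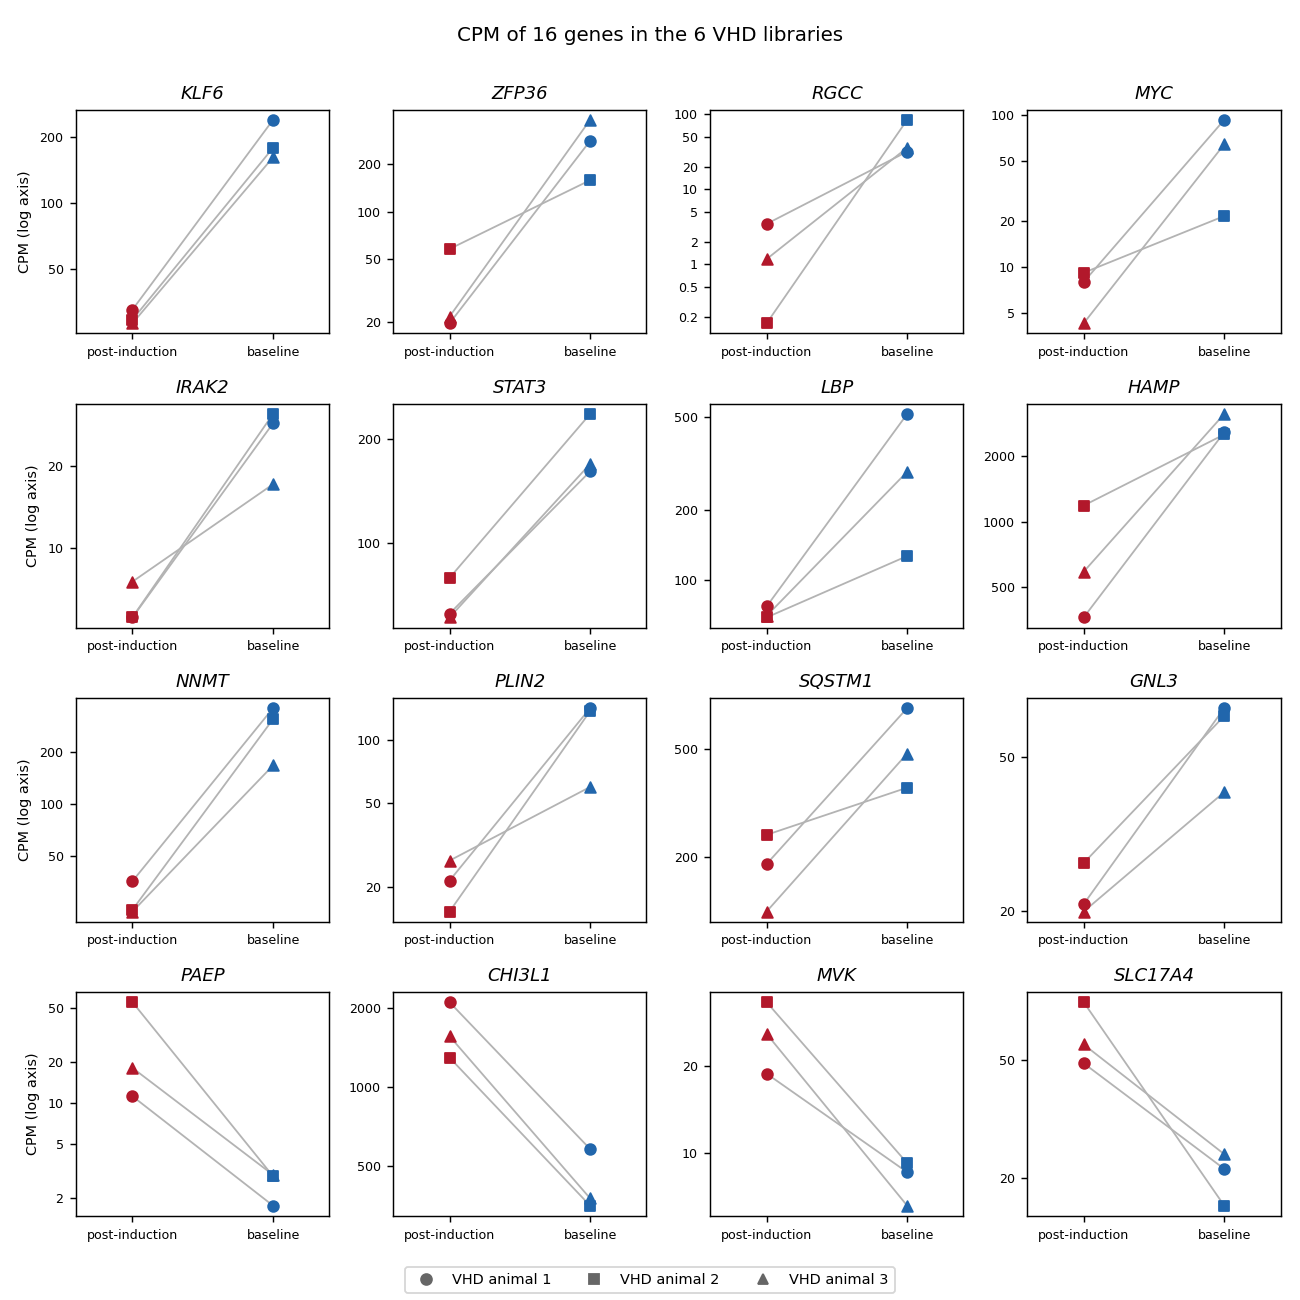
CPM of 16 genes in each VHD library, on a log axis for each gene, with post-induction livers on the left (red) and baseline livers on the right (blue); a line joins the biopsies of 1 animal and the marker shape names the animal. The 12 genes of the upper rows are lower post-induction in every animal, as KLF6 with 28.3 to 32.7 against 162 to 239 CPM, and the 4 of the bottom row are higher, as CHI3L1 with 1293 to 2102 against 353.1 to 580.1 CPM.

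Genes of interleukin 1, interleukin 6 and NF-kappaB signalling were lower together with the immediate early genes. Of 27 tested, 23 had a negative difference (median -0.66, and -1.05, -1.12 and -0.52 in the 3 animals), and in 10 (37.0%, against 3.89% of all genes) every post-induction library was below every baseline library, with 0 the other way. IRAK2, a kinase that carries the interleukin 1 signal from the receptor, had 5.52, 5.53 and 7.49 CPM post-induction and 28.9, 31.3 and 17.2 CPM at baseline (-2.05 ± 0.37, adjusted p = 0.287). IL1RN, the secreted antagonist of the same receptor, had 6.62, 8.21 and 4.83 CPM post-induction, against 55.6, 22.8 and 34.0 CPM at baseline (-2.51 ± 0.62, adjusted p = 0.545). A transducer of the signal and its natural inhibitor were thus lower side by side. TNFRSF12A, the receptor of the cytokine TWEAK, had 1.79, 1.04 and 2.39 CPM post-induction and 19.8, 8.25 and 4.89 CPM at baseline (-2.64 ± 0.52, adjusted p = 0.287). STAT3, through which interleukin 6 turns on acute phase genes, had 62.4, 79.2 and 60.8 CPM post-induction and 161, 236 and 169 CPM at baseline. Its differences were -1.37, -1.58 and -1.48 in the 3 animals (-1.49 ± 0.38, adjusted p = 0.658). The NF-kappaB subunits RELB (-1.79 ± 0.46, adjusted p = 0.658) and NFKB2 (-1.38 ± 0.43, adjusted p = 0.908) were lower in 3 of 3 animals without overlap. IL1B, CXCL8 and SOCS3 matched no symbol and were not analysed here.

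Acute phase proteins, which hepatocytes secrete on such signals, had a negative difference in 17 of 19 (median -0.60, and -0.63, -0.37 and -0.68 in the 3 animals), and 5 (26.3%, against 3.89% of all genes) did not overlap, all lower. CRP, the classical acute phase reactant, had 37.3, 29.6 and 16.7 CPM post-induction and 217, 262 and 40.9 CPM at baseline (-2.64 ± 0.71, adjusted p = 0.698). The gap between its groups was narrow because baseline 3, at 40.9 CPM, was close to post-induction 1, at 37.3 CPM. LBP, which presents endotoxin to macrophages, had 76.6, 68.7 and 69.8 CPM post-induction, a span of a few CPM, against 515, 126 and 291 CPM at baseline (-2.12 ± 0.58, adjusted p = 0.698). HAMP, the iron hormone hepcidin, which is both an acute phase gene and the brake on iron uptake, had 362.6, 1187 and 588.6 CPM post-induction and 2583, 2522 and 3135 CPM at baseline (-1.95 ± 0.56, adjusted p = 0.79). HAMP was among 4 of 19 iron genes (21.1%, against 3.89% of all genes) that did not overlap and were lower, with SLC11A2, an iron importer, at -0.77 ± 0.30 (adjusted p = 1.0). Without post-induction 2 and baseline 3, 11 of the 19 acute phase genes had both remaining post-induction libraries below both baseline libraries, beside 14.6% of all genes.

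Nucleolar genes of ribosome assembly were also at lower values. Of 38 tested, 35 had a negative difference, with a median of -0.71 (-0.87, -0.79 and -0.41 in the 3 animals), and 13 (34.2%, against 3.89% of all genes) did not overlap and were lower post-induction. NIFK, a nucleolar protein that binds the proliferation antigen Ki-67, had 8.83, 8.65 and 9.93 CPM post-induction and 26.1, 21.1 and 18.5 CPM at baseline (-1.26 ± 0.29, adjusted p = 0.487). GNL3, the GTPase nucleostemin, had 20.8, 26.6 and 19.9 CPM post-induction, against 66.9, 63.8 and 40.6 CPM at baseline (-1.34 ± 0.33, adjusted p = 0.57). BRIX1, needed for the large ribosomal subunit, and NOLC1, a nucleolar phosphoprotein, had differences of -1.14 ± 0.33 (adjusted p = 0.79) and -1.06 ± 0.33 (adjusted p = 0.889). NCL, the major nucleolar protein nucleolin, differed less, with 86.1, 89.1 and 98.6 CPM post-induction and 108, 122 and 147 CPM at baseline (-0.46 ± 0.29, adjusted p = 1.0). With both libraries that stood apart left out, 32 of the 38 had the remaining post-induction libraries below the remaining baseline ones, beside 14.6% of all genes, and the median was -0.92. The LD median for the same genes was -0.78.

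The proteins that ribosomes are made of did not follow. Of 46 cytosolic ribosomal protein genes, 15 had a negative difference and 31 a positive one, and 0 of the 46 was free of overlap in either direction. Their median was 0.09 in the fit and -0.51, 1.25 and -0.57 in the animals, and -0.35 without post-induction 2 and baseline 3, so the sign of the median changed without these libraries. The 32 tested subunits of oxidative phosphorylation behaved alike, with a median of 0.17 in the fit, 0.78 in animal 2 and -0.23 without the pair.

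Splicing factors and RNA helicases had a negative difference in 29 of 35 (median -0.38, and -0.24, -0.63 and -0.12 in the animals). Of them 9 (25.7%, against 3.89% of all genes) were free of overlap and lower. DDX5, an abundant helicase of splicing and transcription, had 121.8, 105.4 and 141.4 CPM post-induction and 412, 315 and 291 CPM at baseline (-1.47 ± 0.29, adjusted p = 0.287). SRSF6, a serine- and arginine-rich splicing factor, had 19.5, 9.75 and 17.3 CPM post-induction, against 61.0, 49.6 and 31.1 CPM at baseline (-1.61 ± 0.36, adjusted p = 0.481). Both were among the 60 genes that DESeq2 called lower.

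A run of 11 identifiers on chromosome 20, none with a symbol in the tables used here, was lower as a block. The run was chosen after the values were seen, and so carries no test of its own. It spans 124.3 kb of Mmul_8.0.1, from 40726935 to 40851241, between MT4, a metallothionein gene (metallothioneins are small proteins that bind zinc and copper), and NUP93, a nuclear pore gene. A start may differ by 1 base, because the base from which the files count was not settled. All 11 had a negative difference, from -3.86 to -1.83 with a median of -2.64, and in 10 of them every post-induction library lay below every baseline library. Their CPM summed to 298.1, 471.8 and 51.25 post-induction and to 953.5, 2655 and 1477 at baseline. The groups did not overlap, and animal 3 had the lowest post-induction sum. The most abundant, ENSMMUG00000038082, had 222.6, 281.9 and 40.2 CPM post-induction and 397.4, 1844 and 981.8 CPM at baseline (-2.57 ± 0.76, adjusted p = 0.84). ENSMMUG00000010374 had 0.690, 5.15 and 0.587 CPM post-induction and 16.3, 30.5 and 19.7 CPM at baseline (-3.32 ± 0.70, adjusted p = 0.331). It passed the edgeR threshold without post-induction 2 (-5.13, adjusted p = 0.0125), without the whole animal 2 (-4.85, adjusted p = 0.028) and without post-induction 2 and baseline 3 (-5.21, adjusted p = 0.0382). Over the alternatives its adjusted p ran from 0.000634 in DESeq2 to 1.0. In LD livers the 11 were lower as well, with 370.9, 708.6 and 942.1 CPM post-induction and 2072, 1764 and 4319 CPM at baseline. Reads of near-identical genes can be shared in counting, and how the authors divided them is not given in the sources used here, so the 11 may not be 11 separate measurements.

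**Figure D3:**
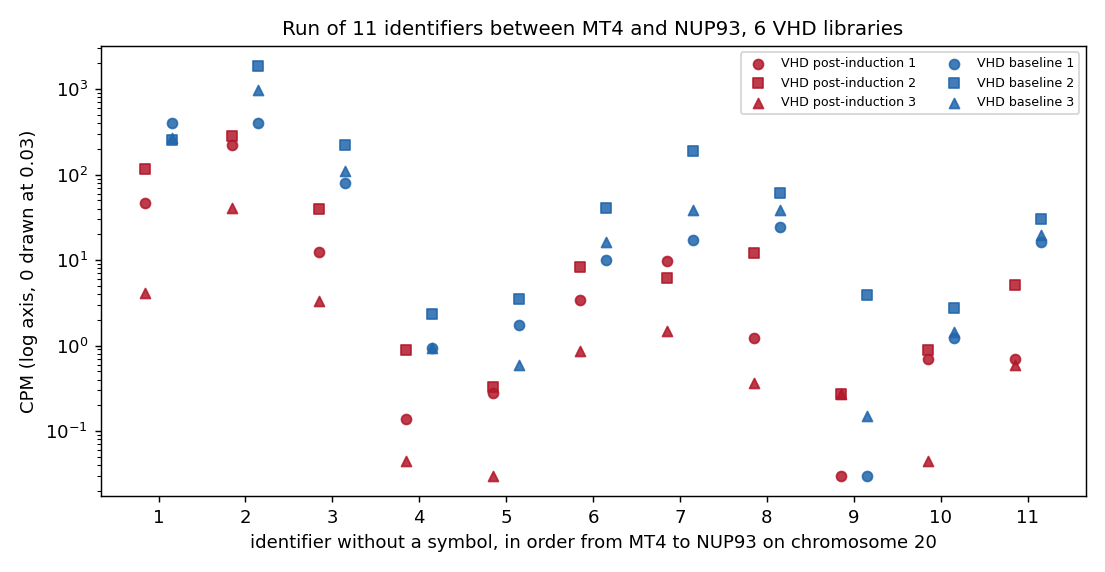
CPM, on a log axis, of 11 identifiers without a symbol in the order in which they lie between MT4 and NUP93 on chromosome 20; red marks the 3 post-induction and blue the 3 baseline VHD libraries, shape marks the animal, and 0 is drawn at 0.03. In 10 of the 11 all red points lie below all blue points.

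PLIN2, which coats lipid droplets and follows the fat load of hepatocytes, had 21.4, 15.2 and 26.7 CPM post-induction and 142.9, 138.3 and 59.99 CPM at baseline (-2.43 ± 0.50, adjusted p = 0.295). It was the 1 of 16 lipid droplet proteins and lipases (6.25%, against 3.89% of all genes) that did not overlap and was lower, and the median of the 16 was 0.06. Cholesterol synthesis and uptake genes stood higher: 14 of 17 had a positive difference, with a median of 0.59 (0.55, 0.84 and 0.44 in the 3 animals), and 6 (35.3%, against 2.8% of all genes) did not overlap and were higher. MVK, mevalonate kinase, had 18.8, 33.1 and 25.7 CPM post-induction and 8.59, 9.23 and 6.59 CPM at baseline (1.67 ± 0.51, adjusted p = 0.887). LSS, which closes the sterol rings, had 13.2, 7.17 and 10.6 CPM post-induction, against 3.73, 4.06 and 6.22 CPM at baseline (1.13 ± 0.40, adjusted p = 1.0). SREBF2, the transcription factor that drives the pathway, had 88.5, 94.7 and 96.6 CPM post-induction and 58.3, 50.9 and 76.7 CPM at baseline (0.59 ± 0.28, adjusted p = 1.0). A regulator and enzymes early and late in the pathway were thus higher in 3 of 3 animals, as were 9.52% of all genes, and none passed the test. PMVK, FDFT1, CYP51A1 and INSIG1 matched no symbol.

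In fatty acid and triglyceride synthesis 16 of 23 genes had a positive difference (median 0.30). Without overlap 3 (13%, against 2.8% of all genes) were higher and 2 (8.70%, against 3.89%) lower. ACACB, the acetyl-CoA carboxylase at the mitochondrion whose product blocks fatty acid import, had 31.7, 20.6 and 46.4 CPM post-induction and 16.4, 15.3 and 12.8 CPM at baseline (1.15 ± 0.36, adjusted p = 0.918). DGAT1, which makes triglyceride, had 18.2, 41.3 and 23.3 CPM post-induction and 14.9, 8.49 and 16.6 CPM at baseline (1.05 ± 0.39, adjusted p = 1.0), with animal 2 at both ends. FASN, fatty acid synthase, overlapped, with 94.4, 145 and 541 CPM post-induction and 71.1, 32.6 and 195 CPM at baseline (1.39 ± 0.77, adjusted p = 1.0). Of the apolipoprotein list, APOA4, carried on intestinal and hepatic lipoproteins, overlapped (3.49 ± 1.19, adjusted p = 1.0) on 5.52, 35.1 and 1.67 CPM post-induction and 0.828, 2.28 and 0.666 CPM at baseline. CETP, which exchanges cholesteryl esters between lipoproteins, had 21.2, 25.9 and 19.9 CPM post-induction and 49.0, 43.0 and 42.3 CPM at baseline (-1.0005 ± 0.44, adjusted p = 1.0).

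Genes that oxidise ethanol and acetaldehyde showed no common shift. Of 13 tested, 4 had a negative and 9 a positive difference, with a median of 0.16, and 0 of them was free of overlap. CYP2E1, the cytochrome that ethanol is known to stabilise as protein, had 2234, 1586 and 1489 CPM post-induction and 3552, 3243 and 1228 CPM at baseline (-0.60 ± 0.39, adjusted p = 1.0). ADH4, an alcohol dehydrogenase of liver, had 1192, 654.6 and 983.4 CPM post-induction and 1135, 999.6 and 518.4 CPM at baseline (0.09 ± 0.44, adjusted p = 1.0). For both genes baseline 3 was the lowest library of all 6, and animal 3 was the only one with a higher post-induction value of CYP2E1. ACSS2, which activates acetate, the end product of ethanol oxidation, had 46.6, 34.4 and 42.6 CPM post-induction, against 19.67, 11.02 and 36.58 CPM at baseline (0.88 ± 0.77, adjusted p = 1.0). ALDH2, the mitochondrial aldehyde dehydrogenase, matched no symbol and was not analysed here.

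NNMT, which methylates nicotinamide and so uses up methyl groups, stood apart from the median of the 19 cytochrome P450 and phase 2 enzymes, which had a median of -0.11. It had 36.0, 24.7 and 24.1 CPM post-induction and 355, 307 and 166 CPM at baseline, a difference of -3.29 ± 0.73 (adjusted p = 0.462). The nearest pair of libraries from both groups was -2.20 apart on the log2 scale. MAT2A, which makes the methyl donor S-adenosylmethionine outside mature hepatocytes, had 55.9, 40.8 and 37.8 CPM post-induction and 172, 120 and 62.6 CPM at baseline (-1.40 ± 0.39, adjusted p = 0.706). CYP7A1, the first enzyme of bile acid synthesis, overlapped, with 7.59, 1.21 and 6.45 CPM post-induction and 27.3, 48.4 and 2.15 CPM at baseline (-2.37 ± 0.92, adjusted p = 1.0). Its animals did not move alike, with differences of -1.83, -5.18 and 1.53.

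Oxidant defence stood lower at its regulator and at some targets, not as a list. Of the 22 genes tested in the NRF2 list, which includes the regulator NFE2L2, 13 had a negative difference (median -0.13). The 4 (18.2%, against 3.89% of all genes) that did not overlap, all lower, were NFE2L2, SRXN1, GCLC and TXNRD1. NFE2L2, the transcription factor NRF2 itself, had 124, 81.2 and 82.2 CPM post-induction and 260, 195 and 201 CPM at baseline (-1.19 ± 0.31, adjusted p = 0.698). SRXN1, which repairs oxidised peroxiredoxins, had 24.4, 13.7 and 24.4 CPM post-induction, against 52.4, 66.7 and 39.7 CPM at baseline (-1.34 ± 0.32, adjusted p = 0.523). GCLC, which begins glutathione synthesis (-1.13 ± 0.34, adjusted p = 0.857), and TXNRD1, thioredoxin reductase (-1.17 ± 0.40, adjusted p = 1.0), were lower in 3 of 3 animals without overlap. SQSTM1, an autophagy receptor that NRF2 also induces, had 189, 242 and 127 CPM post-induction and 704, 360 and 480 CPM at baseline (-1.47 ± 0.34, adjusted p = 0.512).

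GADD45B, a stress sensor that NF-kappaB also drives, had 23.7, 36.4 and 17.1 CPM post-induction and 195, 55.7 and 216 CPM at baseline (-2.60 ± 0.71, adjusted p = 0.698), again with the smallest contrast in animal 2. TNFRSF10B, a death receptor for TRAIL, had 8.69, 9.14 and 13.2 CPM post-induction, against 31.7, 25.4 and 20.9 CPM at baseline (-1.32 ± 0.35, adjusted p = 0.698). In the unfolded protein response the 26 genes had a median of 0.05, and XBP1, its spliced transcription factor, stood out with 90.4, 48.8 and 43.1 CPM post-induction and 297, 207 and 111 CPM at baseline (-1.76 ± 0.46, adjusted p = 0.698).

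SGK1, a kinase that glucocorticoids induce, had 15.3, 10.8 and 21.4 CPM post-induction and 50.2, 86.5 and 55.7 CPM at baseline (-2.01 ± 0.47, adjusted p = 0.516). The 11 glucocorticoid response genes tested had a median of -0.24 and animal medians of -0.08, -0.61 and 0.31. CREM, a transcription factor of cyclic AMP signalling, had 39.5, 28.8 and 37.9 CPM post-induction and 79.6, 91.6 and 114 CPM at baseline (-1.42 ± 0.34, adjusted p = 0.544). PPARGC1A, the fasting-induced coactivator of gluconeogenesis, had 26.9, 24.1 and 27.8 CPM post-induction, against 54.7, 126 and 45.7 CPM at baseline (-1.52 ± 0.43, adjusted p = 0.743). PDE4B, which breaks down cyclic AMP, was on the other side, with 12.7, 9.80 and 15.5 CPM post-induction and 5.59, 6.59 and 6.22 CPM at baseline (1.04 ± 0.30, adjusted p = 0.779). The cyclic AMP list as a whole had 12 of 22 negative differences and a median of -0.09. The 17 clock genes had a median of 0.33, with 10 positive, and animal medians of 0.70, 0.05 and 0.31. Of them 1 (5.88%) was lower and 1 higher without overlap, beside 3.89% and 2.8% of all genes. Of the clock, the activator ARNTL had 3.31, 2.74 and 4.78 CPM post-induction and 23.7, 14.3 and 7.998 CPM at baseline (-2.07 ± 0.55, adjusted p = 0.698), while the repressor CRY2 had 102, 76.9 and 102 CPM post-induction and 45.04, 28.93 and 64.91 CPM at baseline (1.01 ± 0.33, adjusted p = 0.934). The labels give no hour of biopsy and no state of feeding, so their part in these contrasts was not tested.

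The secreted proteins of the liver went both ways, with 4 of 18 hepatokines (22.2%) lower and 1 (5.56%) higher without overlap. The shares of all genes were 3.89% and 2.8%. PAEP, the lipocalin glycodelin, had the smallest p among the genes on the higher side: 11.2, 54.8 and 18.1 CPM post-induction, against 1.76, 2.89 and 2.96 CPM at baseline. The fit put it 10.9-fold above baseline (3.45 ± 0.67, adjusted p = 0.287), with post-induction 2 the highest. PAEP (ENSMMUG00000017915) spans 2796810 to 2812179 of chromosome 15 (minus strand). CHI3L1, the chitinase-like protein YKL-40, a serum marker of liver fibrosis in humans, had 2102, 1293 and 1560.0 CPM post-induction and 580.1, 353.1 and 376.4 CPM at baseline. Its differences of 1.86, 1.87 and 2.05 were nearly equal in the 3 animals (1.92 ± 0.47, adjusted p = 0.545). CHI3L1 (ENSMMUG00000008711) spans 163450627 to 163460212 of chromosome 1 (plus strand). FGF21, a hormone of fasting and ethanol intake, had 1.66, 1.26 and 0.451 CPM post-induction and 10.9, 2.28 and 6.04 CPM at baseline (-2.56 ± 0.74, adjusted p = 0.79). FST, the activin binder follistatin (-1.92 ± 0.60, adjusted p = 0.918), and THPO, thrombopoietin (-0.97 ± 0.31, adjusted p = 0.941), were lower without overlap.

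SCG3, a secretogranin known from endocrine granules, had 4.83, 6.24 and 14.7 CPM post-induction and 1.86, 0.185 and 0.889 CPM at baseline (3.20 ± 0.78, adjusted p = 0.545). PTPRF, a receptor tyrosine phosphatase that can act on the insulin receptor, was tight within both groups, with 94.5, 87.9 and 92.6 CPM post-induction and 42.6, 48.3 and 53.4 CPM at baseline (0.93 ± 0.26, adjusted p = 0.698). SLC17A4, an intestinal and hepatic anion transporter, had 48.9, 78.5 and 56.5 CPM post-induction and 21.5, 16.2 and 24.1 CPM at baseline (1.57 ± 0.46, adjusted p = 0.82). The kinase RPS6KA1 (1.05 ± 0.29), the transcription factor NFIA (1.18 ± 0.34), the adaptor SHD (1.47 ± 0.42), the leucine-rich repeat protein LRRC20 (1.27 ± 0.34) and a Y RNA gene (Y_RNA, ENSMMUG00000028053, 1.06 ± 0.29) were also among the 10 named genes with the smallest p on the higher side, with adjusted p of 0.698 to 0.746. PAEP, SCG3, CHI3L1 and PTPRF were the 4 that DESeq2 called higher.

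**Figure D4:**
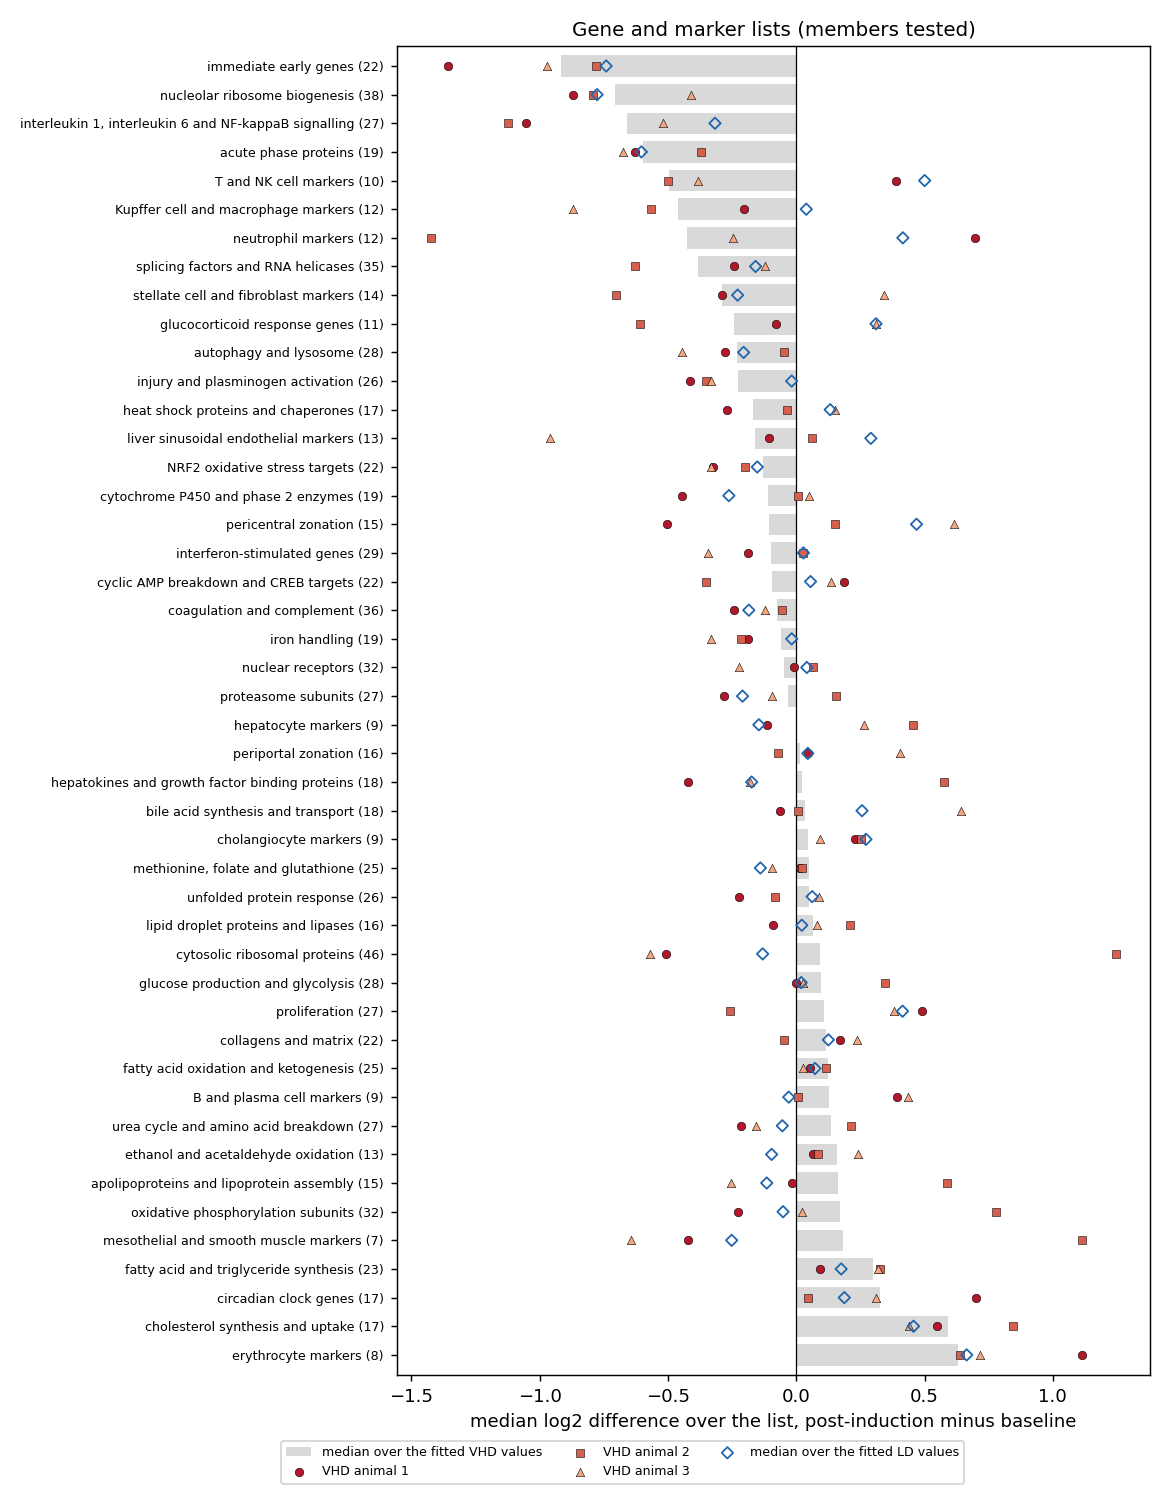
Median log2 difference of the gene and marker lists reported here, post-induction minus baseline, with the number of tested members in brackets; the grey bar is the median over the fitted VHD values, the filled markers are the medians in the 3 VHD animals and the open blue diamond is the median over the fitted LD values. The immediate early, nucleolar, interleukin and acute phase lists lie below 0 in all 3 VHD animals, at medians of -0.92, -0.71, -0.66 and -0.60, and the cholesterol list lies above 0 at 0.59.

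Markers of other cells were read beside these groups. Kupffer cell and macrophage markers had a negative difference in 11 of 12 (median -0.46, and -0.20, -0.57 and -0.87 in the animals). Of them 3 (25.0%, against 3.89% of all genes) were lower without overlap. CSF1R, the receptor that macrophages live on, had 5.52, 4.76 and 5.10 CPM post-induction and 7.66, 7.63 and 7.67 CPM at baseline (-0.58 ± 0.35, adjusted p = 1.0). CD163, a scavenger receptor of macrophages (-0.55 ± 0.31), and VSIG4, a complement receptor of Kupffer cells (-0.72 ± 0.46), had an adjusted p of 1.0 each. The sum over the 12 markers overlapped, with 396.3, 818.5 and 410.3 CPM post-induction and 606.0, 567.4 and 1267 CPM at baseline, where post-induction 2 and baseline 3 were the highest of their time points. Whether macrophage content has a part in the lower interleukin and NF-kappaB genes was not tested. Neutrophil markers had a median of -0.43 over 12 genes and animal medians of 0.70, -1.42 and -0.25, and a median of 0.06 without post-induction 2 and baseline 3. Of the 12, 1 (8.33%) was lower and 1 higher without overlap, beside 3.89% and 2.8% of all genes. S100A8, an alarmin of neutrophils and monocytes, had 1.38, 0.821 and 1.13 CPM post-induction and 4.14, 5.72 and 15.9 CPM at baseline (-2.98 ± 0.58, adjusted p = 0.287), while its partner S100A9 overlapped (-1.57 ± 0.93, adjusted p = 1.0). ELANE, the neutrophil elastase, had 4.14, 2.08 and 3.29 CPM post-induction and 0.932, 1.29 and 1.96 CPM at baseline (1.14 ± 0.51, adjusted p = 1.0). Erythrocyte markers were positive in 8 of 8 (median 0.63), among them the red cell membrane protein EPB42 at 1.10 ± 0.58 (adjusted p = 1.0), and their sums were 11.59 to 22.01 CPM post-induction and 5.798 to 15.39 CPM at baseline. The globins HBA1, HBA2, HBB and HBD matched no symbol.

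The LD animals went through the same induction, and whether VHD livers answered differently was tested as the difference between both responses. Of 18373 genes, 0 passed in edgeR and DESeq2 called 1. An unadjusted p under 0.05 was found for 239 (1.3%), 38 (0.207%) of them higher and 201 (1.09%) lower in VHD. The 1.3% is below the 5% expected if no gene differed. Of the 10 named genes with the smallest p on each side, all but LRRC20 (-0.07 ± 0.34 in LD) had the same sign in LD. A shared sign is not a shared response: the LD difference of the Y RNA gene was 0.02 ± 0.29. For CHI3L1 the LD animals gave 2.16, -0.35 and 0.37. The difference was -2.12 ± 0.38 in LD for KLF6, -2.68 ± 0.56 for ZFP36, -4.72 ± 1.01 for RGCC, 2.39 ± 0.68 for PAEP and 0.91 ± 0.46 for CHI3L1. For KLF6 the VHD minus LD contrast was -0.56 ± 0.52, and for CHI3L1 1.01 ± 0.64, both with an adjusted p of 1.0. Such p-values do not show that the classes answered alike. Of the 714 genes that were lower without overlap in VHD, 260 (36.4%) were so in LD too, which is 22.9% of the 1134 such LD genes (6.17% of all tested). Of the 515 that were higher, 68 (13.2%) were so in LD, or 6.73% of 1011 (5.5% of all tested). Across genes, which are not independent, the responses had a Pearson correlation of 0.308.

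CD83, a marker of activated dendritic and B cells, had the smallest p for a lower VHD response. It had 0.828, 1.64 and 1.62 CPM in VHD post-induction and 3.11, 4.12 and 4.11 CPM at VHD baseline, against 4.50, 3.56 and 5.08 CPM in LD post-induction and 4.67, 1.83 and 2.23 CPM at LD baseline. VHD livers did not overlap between the times and LD livers did, and the contrast was -2.06 ± 0.61 (adjusted p = 1.0). GPR183, an oxysterol receptor that steers B cells, led the other direction (3.67 ± 1.29, adjusted p = 1.0). It had 6.07, 2.30 and 26.3 CPM in VHD post-induction and 3.73, 2.59 and 2.19 CPM at VHD baseline, so that 1 library set the VHD side. LD livers had 1.11, 6.21 and 2.40 CPM post-induction and 2.25, 21.7 and 5.46 CPM at baseline. GPR183 was lower in 3 of 3 LD animals, with LD baseline 2 far above the other LD libraries. LRRC20 (1.34 ± 0.48), IQCD (1.74 ± 0.64), ARFIP2 (1.34 ± 0.54) and the same Y RNA gene (1.04 ± 0.42) followed on that side. CDK15 (-3.25 ± 1.07), DLGAP4 (-3.64 ± 1.21), FAT2 (-3.05 ± 1.02) and C4H6orf141 (-4.55 ± 1.53) followed on the lower side. The last 4 shared 1 pattern: each was highest in LD post-induction 2, LD post-induction 3 and VHD baseline 2, as DLGAP4 with 204.2, 130.6 and 74.2 CPM, against 9.04 to 29.8 CPM in the other 9 libraries. These 3 belong to the 5 libraries listed above for KLF6.

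Among 427 mature miRNAs, 0 passed in edgeR and 0 in DESeq2, and 2 (0.468%) had an unadjusted p under 0.05. That share is below the 5% expected if no miRNA differed. miR-122a-5p, the hepatocyte miRNA, took 67.8, 18.7 and 65.7% of the miRNA counts post-induction and 69.2, 56.2 and 34.9% at baseline. miR-21-5p took 5.46, 0.192 and 5.67% post-induction and 4.14, 7.43 and 0.634% at baseline. let-7a-5p, a member of a family that restrains growth genes, took 1.54, 0.363 and 1.58% post-induction and 0.954, 1.99 and 0.387% at baseline. All 3 were lowest in post-induction 2 and baseline 3, the pair that stood apart in the mRNA. miR-148a-3p, another liver miRNA, took 0.104, 6.05 and 0.300% post-induction and 2.01, 0.220 and 6.61% at baseline, so it was highest where the others were lowest. The 95% Clopper-Pearson intervals of these shares reach at most 0.231 points to either side, and cover counting error only.

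**Figure D5:**
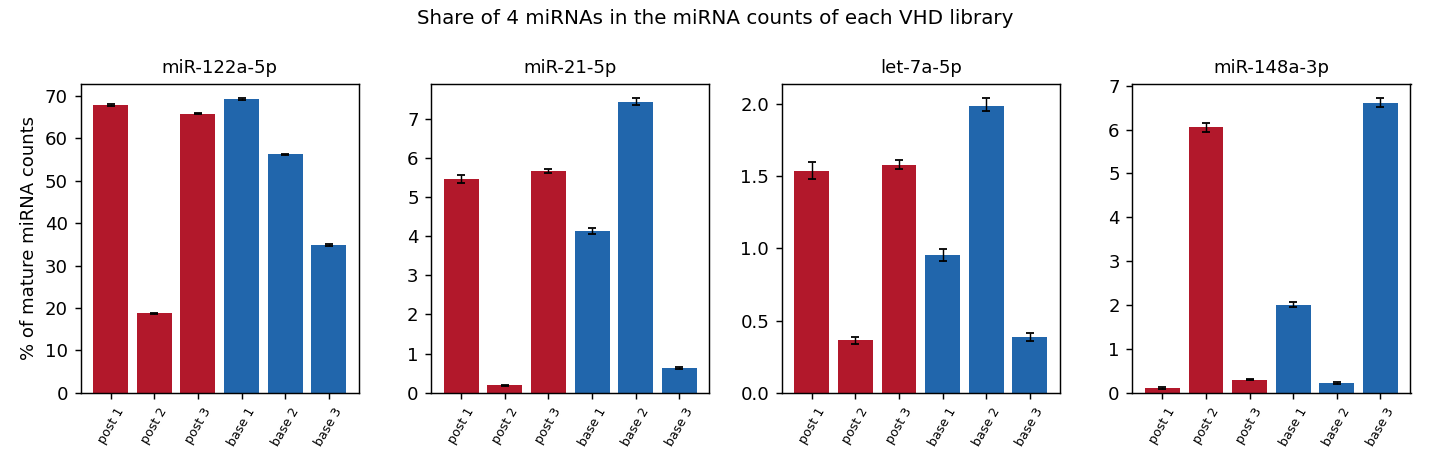
Share of miR-122a-5p, miR-21-5p, let-7a-5p and miR-148a-3p in the mature miRNA counts of each VHD library, in percent, with post-induction libraries in red on the left and baseline libraries in blue on the right; error bars are 95% Clopper-Pearson intervals. Post-induction 2 and baseline 3 hold the lowest shares of the first 3 and the highest of miR-148a-3p, at 6.05 and 6.61%.

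With such libraries the fitted differences had wide errors: -0.24 ± 0.92 for miR-122a-5p, -0.15 ± 1.12 for miR-21-5p, 0.05 ± 0.87 for let-7a-5p and -0.91 ± 1.28 for miR-148a-3p, each with an adjusted p of 0.993. For miR-21-5p the animals gave -0.20, -5.73 and 4.01. miR-34a-5p, a miRNA of the stress response, had 62.7, 30.9 and 71.5 CPM post-induction and 34.1, 52.2 and 38.9 CPM at baseline (0.37 ± 0.78), and miR-223, a myeloid miRNA, 132, 23.2 and 22.3 CPM post-induction and 54.6, 87.1 and 16.04 CPM at baseline (0.06 ± 0.91).

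The miRNAs with groups that did not overlap were few, 2 lower (0.468%) and 4 higher (0.937%). miR-769-3p had 20.9, 12.9 and 11.1 CPM post-induction and 47.8, 31.0 and 128 CPM at baseline (-2.29 ± 0.80), and miR-143-5p, from a locus active in smooth muscle and stroma, 0, 7.72 and 14.3 CPM post-induction and 47.8, 34.8 and 41.2 CPM at baseline (-2.15 ± 0.77). Of the 4 higher, miR-320c had 27.9, 46.3 and 38.2 CPM post-induction and 6.83, 17.4 and 9.16 CPM at baseline (1.65 ± 0.79). The other 3 were miR-152-3p (0.69 ± 0.51), miR-129-5p (1.28 ± 0.90) and miR-516a-5p (0.80 ± 1.01). The VHD libraries held 157174 to 613359 mature miRNA counts, so the lowest CPM values among these miRNAs rest on a few reads. Next by p came miR-595 (1.10 ± 0.56), miR-371-5p (1.36 ± 0.83), miR-1224-5p (1.30 ± 0.80) and let-7i-5p (1.17 ± 0.72) on the higher side, and miR-1283 (-1.82 ± 0.96), miR-521 (-1.77 ± 0.95) and miR-21-3p (-1.71 ± 0.93) on the lower side. All of these had an adjusted p of 0.993. For the response of VHD minus that of LD, 0 miRNAs passed. An unadjusted p under 0.05 was found for 3 (0.703%), 2 (0.468%) higher and 1 (0.234%) lower, again below the 5% expected if none differed. The leading values were those of miR-3059-3p (2.84 ± 1.21), miR-323b-3p (3.14 ± 1.45) and miR-506-5p (2.90 ± 1.41) on the higher side, and of miR-504-3p (-2.23 ± 0.88), miR-7197-3p (-3.64 ± 1.81) and miR-29c-5p (-1.73 ± 0.86) on the lower side, each with an adjusted p of 0.99.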

How the data were processed

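RNA of 12 biopsies was sequenced, with 500 ng of RNA of integrity number above 8.5 per sample and reads of 76 bases, per the labels. The authors deposited raw tables of estimated counts (expected counts) for 40611 transcripts and 903 mature miRNAs; the build Mmul_8.0.1 and the tools BWA, Bowtie and Partek are named in the submitters' processing notes, and no version, annotation release or strand setting is given in the sources used here. The deposited normalized tables were not used. Transcripts were summed into 23993 genes by identifier and rounded; 8522 identifiers had no symbol in the name table, and lists used the most abundant identifier of a symbol. After filterByExpr, 18373 genes and 427 miRNAs remained; edgeR 4.0.16 under R 4.3.3 was fitted with TMM scaling, group means of all 12 libraries, robust quasi-likelihood F test, Benjamini-Hochberg adjustment within a comparison, threshold 0.05. CPM use TMM-scaled totals; log2 CPM for medians by animal and overlap use a prior count of 2, and standard errors are the difference over the square root of F. DESeq2 1.42.0 and limma 3.58.1 were alternatives. The code was tested on simulated data with changes of 1, 2 and 4 on the log2 scale. At the threshold it recovered 0 of 68, 24 of 66 and 53 of 66 changed genes. For miRNAs it recovered 0 of 14, 4 of 14 and 12 of 12, so smaller changes can be missed.

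The 37 gene, 10 marker and 12 miRNA lists and the comparisons were chosen with earlier results of these data known. Named were genes with a symbol and a mean log2 CPM of at least 1 (miRNAs 3): the 10 (miRNAs 5) with the smallest p in each direction, the 5 with the widest gap between groups, the 5 (miRNAs 3) leading the difference from LD, up to 4 of each list, and a panel. Outside the rule, and named after their values were seen, are JUNB, FOS, ATF3, NR4A2, STAT3, NFKB2, FASN, NCL, ELF3, DAO, ZBTB21, miR-122a-5p, let-7a-5p and the chromosome 20 identifiers.

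VHD libraries of 1 number are from 1 animal, by the titles. Deviations from the group means correlated at 0.406, -0.354 and 0.104 over genes and 0.179, -0.619 and -0.264 over miRNAs in VHD animals 1, 2 and 3. Of the genes and lists fitted, 1 gene and 1 list are not reported here.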

Additional observations from a re-analysis of the deposited data

Results flagged for a closer look

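The median difference of the 12 Kupffer cell and macrophage markers was negative in 3 of 3 VHD animals (-0.20, -0.57 and -0.87) and slightly positive in 3 of 3 LD animals (0.03, 0.13 and 0.19). Over the fitted values it was -0.46 in VHD, with 11 markers negative and 1 positive, and 0.04 in LD, with 6 negative and 6 positive. The difference between these medians was not tested. Of the markers named, CSF1R was lower in every VHD animal and higher in every LD animal, with a VHD minus LD contrast of -1.13 ± 0.49 (adjusted p = 1.0), and CD163 showed the same split, at -0.84 ± 0.44 (adjusted p = 1.0). VSIG4 did not, being lower in 2 of 3 LD animals. Other marker lists also had medians of opposite sign in VHD and LD, though not in every animal, and these were not tested either. Lower in VHD were T and NK cells, at -0.50 in VHD (7 of 10 negative) and 0.50 in LD (9 of 10 positive). So were sinusoidal endothelium, at -0.16 in VHD (10 of 13 negative) and 0.29 in LD (11 of 13 positive), and neutrophils, at -0.43 in VHD (8 of 12 negative) and 0.42 in LD (7 of 12 positive). Medians were positive in VHD and negative in LD for mesothelial and smooth muscle markers (0.18 and -0.25). The same held for B and plasma cells (0.13 and -0.03) and hepatocytes (0.0006 and -0.15).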

How the results depend on the processing

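The count of genes past the threshold between VHD post-induction and baseline was 0. With DESeq2 it was 64 (4 higher, 60 lower), and with the term for 5 libraries 3 (DAO higher, KLF6 and ZBTB21 lower). It was 1 without post-induction 2 and baseline 3, and 1 without animal 2, a setting chosen after seeing the data. Leaving out single libraries gave 0 to 1. For the VHD minus LD contrast DESeq2 gave 1 and the single omissions 0. The cause was not tested. RLE and upper-quartile factors, both filters and transcripts in place of genes gave 0, as did every miRNA fit. With the animal as a replicate block, fixed or random, or in VHD libraries alone, 0 genes and miRNAs passed, so the pairing changed no call. Signs turned for ADH4 (-0.0517 with the term for 5 libraries, -0.23 without animal 3, single omissions -0.21 to 0.31), let-7a-5p (-0.43 with the term, -0.0734 without animal 1, -0.64 without animal 3, omissions -0.46 to 0.53), miR-122a-5p (0.24 and 0.14 without animals 1 and 2, omissions -0.67 to 0.71), miR-148a-3p (0.12 with the term, 0.21 and 0.0028 without animals 1 and 3), miR-21-5p (0.75 without animal 2, omissions -0.71 to 0.40), miR-223 (-0.0517 and -0.39 with a fixed and a random animal block, -0.0250 without the pair, -1.22 without animal 1, -0.42 with the term, omissions -1.22 to 0.73) and miR-34a-5p (-0.17 with the term).

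At these depths the standard errors of the named miRNAs reached 1.28 for post-induction against baseline in VHD (log2 scale), and what set them was not tested. Of the gene and marker list medians those of the immediate early, interleukin, acute phase, nucleolar, splicing and cholesterol lists kept 1 sign in all alternatives, and those of the ribosomal protein and oxidative phosphorylation lists did not.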
